A study of Mus musculus with 6 samples.

Results

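The genes analysed here encode cytokines of the interleukin-6 (IL-6) and interleukin-12 (IL-12) families and interleukin-10 (IL-10). They were taken by symbol as Il6, Lif and Osm, as Il12a, Il12b, Il23a, Il27 and Ebi3, and as Il10, and all 9 were present among the 24411 genes of the count tables. RNA-seq was performed on PM, primary microglia that were shaken off mixed glial cultures made from pooled brains of newborn ICR mice. All PM received GSK-J4 (10 μM), a small molecule inhibitor of the histone H3K27 demethylase JMJD3. The GSK-J4 group (3 libraries) received nothing further, and the LPS + GSK-J4 group (3 libraries) also received LPS (10 ng/ml), bacterial lipopolysaccharide that is sensed by TLR4. RNA was collected at 4 h. Untreated PM and PM with LPS alone were not analysed here, so the effect of GSK-J4 itself was not measured. Each difference below is one between PM with and without LPS in the presence of GSK-J4. The part of cell make-up in these differences was not tested. The paper calls the PM samples of each treatment independent biological replicates and refers to independent PM experiments. The sample labels do not say whether the libraries of a group came from separate cultures. The p values measure only the spread between these libraries.

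Cytokines of the IL-6 family signal through receptors that contain the shared chain gp130, the product of Il6st, and activate JAK kinases and the transcription factor STAT3. IL-12 family cytokines are heterodimers. The product of Il12b pairs with that of Il12a to form IL-12 or with that of Il23a to form IL-23, and the product of Il27 pairs with that of Ebi3 to form IL-27. IL-10 also acts through STAT3 and restrains inflammatory gene expression in microglia and macrophages. Microglia are a known source of several of these cytokines after TLR4 stimulation.

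Each library had between 2597505 and 3472716 fragments on genes. Levels are given as CPM, counts scaled to a common library size after TMM normalization, with factors of 1.06 to 1.31 in GSK-J4 and of 0.821 to 0.832 in LPS + GSK-J4. The lower limit of detection was set at 3 counts in a library, equal to 0.670 to 1.09 CPM in GSK-J4 and 1.14 to 1.23 CPM in LPS + GSK-J4, a limit that covers counting error only. The ribosomal RNA precursor Rn45s took 22.2 to 32.4% of the counts in GSK-J4 and 45.8 to 48.1% in LPS + GSK-J4, and no call on the cytokine genes changed when it was removed together with Mir6236 and Lars2. The sum of 12 microglia markers was 3844 to 4013 CPM in GSK-J4 and 3009 to 3210 CPM in LPS + GSK-J4. Of the 12, 9 were lower in every LPS + GSK-J4 library, against 11.4% of all genes with a count, and 0 were called. The sum of 8 astrocyte markers was 53.6 to 59.1 CPM and 130.1 to 157.7 CPM in the 2 groups. Of these markers 5 were higher in every LPS + GSK-J4 library, against 16.2% of all genes with a count, and Gfap was called. Marker sums were also higher in LPS + GSK-J4 for the oligodendrocyte lineage (350 to 400 against 181 to 210 CPM, with 4 of 8 markers higher in every library) and neurons (26.7 to 30.0 against 10.8 to 11.2 CPM, with 3 of 5), beside the same 16.2%. Of the oligodendrocyte markers 0 were called, and of the neuron markers 1, Stmn2 (log2 fold change 1.518). That call was lost in some alternatives, among them leaving out GSK-J4 replicate 1 (1.380). The sum of 5 endothelial markers was higher as well (22.1 to 56.7 against 13.8 to 18.1 CPM). Of these 1, Cdh5, was higher in every library, a count that does not set them apart from the 16.2% of all genes with a count. Cdh5 was at 12.3 ± 2.76 and 35.0 ± 18.6 CPM (SD, n = 3). Its log2 fold change of 1.504 lay just above the threshold for a call. The call was lost in several alternatives, among them unstranded counts (1.486), removal of Rn45s, Mir6236 and Lars2 (1.494), and leaving out LPS + GSK-J4 replicate 3 (1.051). Cldn5 was at 0, and Pecam1, Kdr and Tek had overlapping groups. In bulk RNA, fewer cells of a type and less RNA per cell cannot be told apart. The sum of 6 lymphocyte and granulocyte markers was 2.19 to 4.91 CPM in GSK-J4, against 1.90 to 5.34 CPM in the LPS + GSK-J4 group, nearly all of it S100a8 (3.39 ± 1.25 and 3.44 ± 1.52 CPM, SD, n = 3), while Cd3g, Nkg7 and S100a9 were at 0 in all libraries.

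In PM treated with GSK-J4, 3 of the cytokine genes, Il6, Lif and Il12b, were called higher with LPS and 0 lower at the thresholds used. A call required an adjusted p no higher than 0.01 together with a log2 fold change of 1.5 or more in size, in edgeR's quasi-likelihood test with Benjamini-Hochberg adjustment over the 10133 genes left after a filter on low counts. DESeq2's Wald test called the same numbers, 3 and 0, and at an unadjusted p under 0.05 in edgeR 1 gene, Osm, was lower. For comparison, 2.95% of all tested genes were called higher and 0.809% lower. Of the 9 genes, 5 were tested, and Il12a, Il23a, Il27 and Il10 had too few counts. Il6 and Il12b reached the filter only through the LPS + GSK-J4 libraries, since 1 and 0 of the GSK-J4 libraries were above it. In GSK-J4, Il12a, Il12b, Il23a, Il27 and Il10 were under 3 counts in every library, and Il12a and Il27 were at 0 in all 3. In LPS + GSK-J4, no gene was under 3 counts in every library, Il12a was under 3 counts in 2 libraries and Il10 in 1. Every LPS + GSK-J4 library was above every GSK-J4 library for 6 of the 9 genes, against 16.2% of all genes with a count, and below for 2, Osm and Ebi3, against 11.4%. With 3 libraries in each group, an exact permutation test cannot give p below 0.1, and it gave this value for each of the 8 genes and p = 0.4 for Il12a (2-sided).

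**Figure D1:**
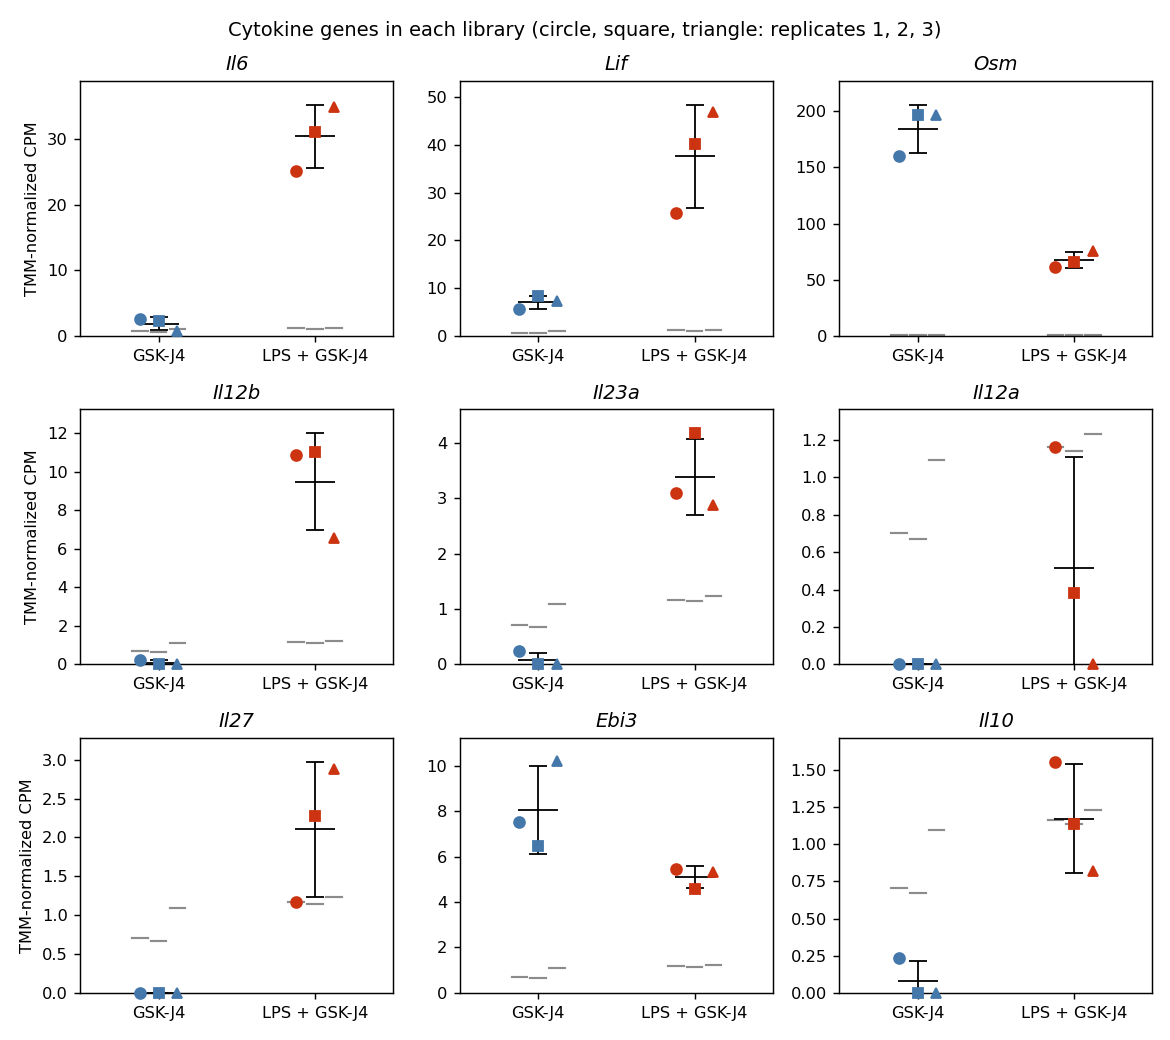
TMM-normalized CPM of each of the 9 cytokine genes in the 3 GSK-J4 libraries (blue) and the 3 LPS + GSK-J4 libraries (red), with circles, squares and triangles for replicates 1, 2 and 3, black bars for the mean and SD (cut off at 0), and grey ticks for the level of 3 counts in that library. Each panel has its own linear axis, and the groups overlap only for Il12a, while Osm and Ebi3 are the genes with lower values in LPS + GSK-J4.

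The region around the annotated start was available for 5 of the 9 genes, and is shown for the 3 genes that were called and for Ebi3, the tested gene with the smallest difference. Each sequence is from RefSeq (GRCm38.p6, plus strand) and runs from 250 bases before to 50 bases after the start. It covers chr5:30012864-30013163 for Il6, chr11:44399813-44400112 for Il12b, chr11:4257318-4257617 for Lif and chr17:55952373-55952672 for Ebi3. Capitals mark matches to the motifs searched on both strands, which were the NF-kB consensus, C/EBP (TTNNGNAA), AP-1 (TGANTCA), the CRE half-site (ACGTCA), the STAT motif (TTCNNNGAA) and the ISRE.
Il6: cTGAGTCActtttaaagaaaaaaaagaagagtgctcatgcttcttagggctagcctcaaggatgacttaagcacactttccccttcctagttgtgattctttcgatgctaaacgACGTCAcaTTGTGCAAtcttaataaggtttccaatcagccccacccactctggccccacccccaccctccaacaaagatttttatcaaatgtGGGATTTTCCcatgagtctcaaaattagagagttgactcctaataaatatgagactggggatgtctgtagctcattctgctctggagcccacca
Il12b: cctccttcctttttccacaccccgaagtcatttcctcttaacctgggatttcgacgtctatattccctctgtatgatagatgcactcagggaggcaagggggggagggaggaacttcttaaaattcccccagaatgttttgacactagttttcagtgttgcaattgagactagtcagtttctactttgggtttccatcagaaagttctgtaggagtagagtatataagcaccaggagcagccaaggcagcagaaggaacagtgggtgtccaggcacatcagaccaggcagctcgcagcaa
Lif: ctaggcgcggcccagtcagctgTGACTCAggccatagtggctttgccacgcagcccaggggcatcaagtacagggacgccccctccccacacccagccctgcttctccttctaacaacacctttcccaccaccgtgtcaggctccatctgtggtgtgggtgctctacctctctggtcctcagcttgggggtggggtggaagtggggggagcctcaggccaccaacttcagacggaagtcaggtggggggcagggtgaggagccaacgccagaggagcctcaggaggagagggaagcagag
Ebi3: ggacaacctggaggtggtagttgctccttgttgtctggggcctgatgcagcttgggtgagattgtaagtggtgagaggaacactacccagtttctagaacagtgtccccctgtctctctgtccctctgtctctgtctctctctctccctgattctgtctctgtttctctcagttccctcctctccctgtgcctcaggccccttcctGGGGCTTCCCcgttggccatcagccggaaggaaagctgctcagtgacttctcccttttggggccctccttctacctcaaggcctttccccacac
The Il6 sequence held 4 of the 6 motifs, with AP-1 at -249 to -243, the CRE half-site at -136 to -131, C/EBP at -128 to -121 and NF-kB at -44 to -35 from the start. Ebi3 also held an NF-kB match at -44 to -35, and Lif an AP-1 match at -228 to -222. No match was found in these letters of Il12b, nor in the windows of Il12a. Only exact matches to the motifs were counted, so binding sites that depart from them would be missed. Of 32851 promoters of this length, 4.505% held the NF-kB motif, 40.68% C/EBP, 7.808% AP-1, 7.513% the CRE half-site, 8.298% the STAT motif and 3.443% the ISRE. A match describes the sequence and is not evidence of binding.

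Il6 encodes IL-6, a cytokine of the acute phase response. Il6 (mm10 chromosome 5, 30013114 to 30019981, plus strand) had 11, 10 and 2 counts in GSK-J4 replicates 1, 2 and 3, or 2.58, 2.23 and 0.729 CPM. In LPS + GSK-J4 it had 65, 82 and 85 counts, or 25.2, 31.1 and 34.9 CPM. GSK-J4 replicate 3 was under the limit of 3 counts, while all LPS + GSK-J4 libraries lay far above it. Il6 rose from 1.85 ± 0.984 to 30.4 ± 4.88 CPM (SD, n = 3), with a log2 fold change of 3.91 (standard error 0.30, edgeR adjusted p = 9.54e-08) or 15.04-fold. In this gene the promoter sequence above carried both the NF-kB and the C/EBP match.

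Lif encodes leukemia inhibitory factor, which supports glial and neural precursor cells. Lif (chromosome 11, 4257557 to 4272514, plus strand) was at 5.63, 8.26 and 7.29 CPM in GSK-J4, from 24, 37 and 20 counts. It was at 25.6, 40.2 and 46.8 CPM in LPS + GSK-J4, from 66, 106 and 114 counts. The groups did not overlap, and LPS + GSK-J4 replicate 1 was the lowest of its group. Lif rose from 7.06 ± 1.33 to 37.6 ± 10.9 CPM (SD, n = 3), with a log2 fold change of 2.40 (standard error 0.25, edgeR adjusted p = 3.39e-06) or 5.29-fold. It was the only gene of the 3 that was still tested and called with at least 10 counts required in every library.

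Osm encodes oncostatin M, a gp130 cytokine made by myeloid cells. Osm (chromosome 11, 4236420 to 4241026, plus strand) had 681, 880 and 540 counts in GSK-J4, or 159.8, 196.5 and 197.0 CPM. In LPS + GSK-J4 it had 158, 174 and 183 counts, or 61.4, 66.1 and 75.2 CPM. All LPS + GSK-J4 libraries lay below all GSK-J4 libraries, opposite to Il6 and Lif. The means were 184 ± 21.3 and 67.5 ± 7.03 CPM (SD, n = 3), and the log2 fold change was -1.45 (standard error 0.14, edgeR adjusted p = 1.04e-06), a level 2.73-fold lower. This passed the threshold for the adjusted p, as 5.46% of tested genes did in this direction, and was just short of the threshold for the fold change. Osm reached both thresholds without the filter on low counts (log2 fold change -1.503 in edgeR, where 0.633% of 18016 genes were called lower), without GSK-J4 replicate 1 (-1.55) and without LPS + GSK-J4 replicate 3 (-1.53), and its log2 fold change was between -1.55 and -1.39 over all alternatives.

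Ratios within a library do not depend on the scaling between libraries. Osm had 28.4, 23.8 and 27.0 counts per Lif count in GSK-J4 and 2.39, 1.64 and 1.61 in LPS + GSK-J4, a 14.2-fold difference between the geometric means of the groups. Osm had 61.9, 88.0 and 270.0 counts per Il6 count in GSK-J4, where replicate 3 rests on 2 counts of Il6, and 2.43, 2.12 and 2.15 in LPS + GSK-J4. Il6 had 0.458, 0.270 and 0.1 counts per Lif count in GSK-J4 and 0.985, 0.774 and 0.746 in LPS + GSK-J4. In all 3 ratios the groups did not overlap (exact permutation test, 2-sided, p = 0.1, the smallest possible).

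Osm and Lif are neighbours on chromosome 11, with 16.5 kb between them, and are read in the same direction. On the other side of Osm, at a distance of 20.9 kb, lies Tbc1d10a (4186789 to 4215505, plus strand), which encodes a Rab GTPase-activating protein. Tbc1d10a was at 76.5, 77.9 and 82.4 CPM in GSK-J4 and at 15.1, 19.4 and 25.1 CPM in LPS + GSK-J4. It fell from 79.0 ± 3.09 to 19.9 ± 4.98 CPM (SD, n = 3), with a log2 fold change of -1.99 (standard error 0.17, edgeR adjusted p = 4.65e-07). In this stretch of the chromosome Tbc1d10a and Osm were thus lower and Lif was higher in LPS + GSK-J4. Within 50 kb of the 9 genes lay 20 other protein-coding genes of the count tables, of which 14 were tested. Of these, 0 were called higher and 1, Tbc1d10a, was called lower, beside 2.95% and 0.809% of all tested genes. DESeq2 gave the same numbers, and at an unadjusted p under 0.05 in edgeR 3 were higher and 2 lower. Mapkapk2, a kinase gene 28.7 kb from Il10, was at 180.3 ± 14.2 and 459 ± 41.5 CPM, with a log2 fold change of 1.35 (edgeR adjusted p = 4.02e-07) that was short of the fold threshold.

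**Figure D2:**
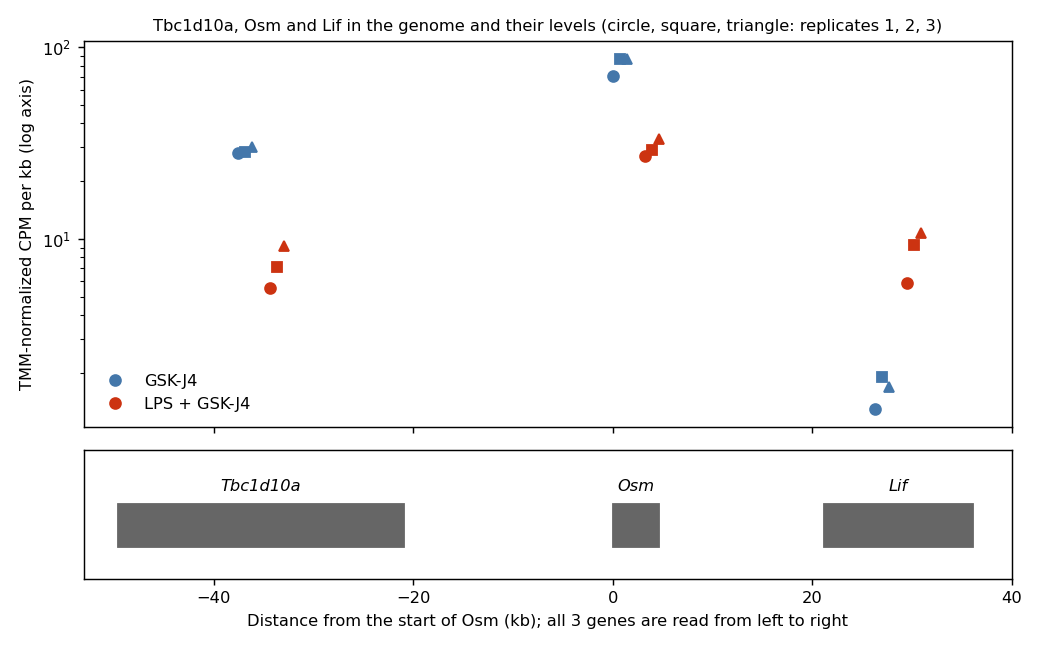
TMM-normalized CPM per kb of exon (log axis) of Tbc1d10a, Osm and Lif in each library, above a map of the 3 genes drawn to scale, with the distance from the start of Osm in kb on the x axis. GSK-J4 libraries are blue, LPS + GSK-J4 libraries are red, and circles, squares and triangles are replicates 1, 2 and 3 (moved sideways for clarity). For Tbc1d10a and Osm the red points lie below the blue points and for Lif above them.

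Il12b encodes the subunit that IL-12 and IL-23 share. Il12b (chromosome 11, 44400063 to 44414033, plus strand) had 1, 0 and 0 counts in GSK-J4, and 28, 29 and 16 counts, or 10.9, 11.0 and 6.57 CPM, in LPS + GSK-J4. It was near 0 in 1 group and well above 3 counts in each library of the other. Il12b rose from 0.0782 ± 0.136 to 9.48 ± 2.52 CPM (SD, n = 3), with a fitted log2 fold change of 6.24 (standard error 0.64, edgeR adjusted p = 2.84e-06) whose size rests on the prior count in edgeR and was 7.83 without GSK-J4 replicate 1, the library with the single count. The ratio of the summed CPM was 109.6, with a 95% exact counting interval of 19.1 to 4389 that covers counting error only.

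The partner subunits of Il12b were lower in count. Il23a (chromosome 10, 128296139 to 128298752, minus strand) had 1, 0 and 0 counts in GSK-J4 and 8, 11 and 7 counts, or 3.11, 4.18 and 2.88 CPM, in LPS + GSK-J4. The means were 0.0782 ± 0.136 and 3.39 ± 0.694 CPM (SD, n = 3), with a ratio of the summed CPM of 39.0 (95% exact counting interval 6.42 to 1601). Il23a was above the limit in every LPS + GSK-J4 library and in none of the GSK-J4 libraries. It was left out by the filter, and in edgeR's test without that filter it was called higher (log2 fold change 4.72, adjusted p = 8.04e-06, and 3.72e-06 to 0.00302 over its alternatives), where 2.1% of 18016 genes were called in this direction. Without GSK-J4 replicate 1, which held the single count, its log2 fold change was 6.33.

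Il12a (chromosome 3, 68690644 to 68698547, plus strand), which encodes the other subunit of IL-12, had 0 counts in all GSK-J4 libraries and 3, 1 and 0 counts in LPS + GSK-J4. Its groups overlapped, and since both were at or under the limit of 3 counts per library no fold change is given. A difference in Il12a was not detectable at this depth (edgeR without the filter, adjusted p = 0.159, and 0.110 to 0.535 over its alternatives). Of the subunits of IL-12 and IL-23, transcripts of Il12b and Il23a were therefore measured above the limit in all LPS + GSK-J4 libraries, and those of Il12a reached it in 1.

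Il27 (chromosome 7, 126589010 to 126594941, minus strand), which encodes the cytokine subunit of IL-27, had 0 counts in all GSK-J4 libraries and 3, 6 and 7 counts in LPS + GSK-J4. These were 1.16, 2.28 and 2.88 CPM, with a mean of 2.11 ± 0.868 CPM (SD, n = 3), and all libraries were at or above the limit. Against a limit of 3 counts per library in GSK-J4, Il27 was at least 2.56-fold higher. Without the filter on low counts it was called higher in edgeR (log2 fold change 5.74, adjusted p = 0.000236, and 0.000193 to 0.0124 over its alternatives), and without replicate 3 of both groups it was not (5.57, adjusted p = 0.0124). DESeq2 without the filter gave Il27 no adjusted p. Il27 overlaps Apobr, which is read from the other strand, and only counts on the strand of Il27 were used.

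Ebi3 (chromosome 17, 55952640 to 55957022, plus strand), which encodes the receptor-like partner of Il27, had 32, 29 and 28 counts in GSK-J4 and 14, 12 and 13 counts in LPS + GSK-J4. In CPM these were 7.51, 6.48 and 10.2 against 5.44, 4.56 and 5.34. All LPS + GSK-J4 libraries lay below all GSK-J4 libraries, by a small margin. The means were 8.07 ± 1.93 and 5.11 ± 0.483 CPM (SD, n = 3), and the log2 fold change of -0.62 (standard error 0.31, edgeR adjusted p = 0.160) did not pass the test. The NF-kB match in its promoter sequence thus stood beside a gene that was not called, and that of Il6 beside one that was. The antisense gene Gm16712 overlaps Ebi3 on the other strand, and only counts on the strand of Ebi3 were used. Fragments that cannot be assigned to a single gene are missing from counts. In unstranded counts Ebi3 had 24, 17 and 18 in GSK-J4 and 11, 5 and 9 in LPS + GSK-J4. Of the subunits of IL-27, Ebi3 was above the limit in both groups and Il27 reached it in LPS + GSK-J4 alone, a difference between the 2 genes that was not tested.

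Il10 (chromosome 1, 131019845 to 131024974, plus strand), which encodes IL-10, had 1, 0 and 0 counts in GSK-J4 and 4, 3 and 2 counts in LPS + GSK-J4. The latter were 1.55, 1.14 and 0.822 CPM, the last of which is under the limit. The means were 0.0782 ± 0.136 and 1.17 ± 0.367 CPM (SD, n = 3), with a ratio of the summed CPM of 13.5 (95% exact counting interval 1.87 to 592). Without the filter on low counts Il10 did not pass edgeR's test (log2 fold change 3.22, adjusted p = 0.0612, and 0.00270 to 0.260 over its alternatives). Without GSK-J4 replicate 1, which held the single count, its log2 fold change was 4.83 (adjusted p = 0.0618). It passed in unstranded counts (4.01, adjusted p = 0.00270), which add fragments from the other strand.

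To compare levels between genes, CPM were divided by the summed exon length of each gene in kb. This length joins all annotated exons of a gene and can exceed that of the transcripts present. The order of genes and the shares below depend on this choice of length. In GSK-J4, Osm was the most abundant of the 9 transcripts at a mean of 81.2 CPM per kb (range 70.4 to 86.7), followed by Ebi3 at 6.99 (5.61 to 8.85), Lif at 1.62 (1.29 to 1.90) and Il6 at 0.761 (0.3004 to 1.06). The ranges of these 4 genes did not overlap, and the other 5 were near 0. In LPS + GSK-J4 the order was Osm at 29.7 CPM per kb (27.0 to 33.1), Il6 at 12.5 (10.4 to 14.4) and Lif at 8.64 (5.89 to 10.8). Then came Il12b at 4.82 (3.34 to 5.60), Ebi3 at 4.43 (3.95 to 4.71), Il27 at 2.06 (1.14 to 2.82), Il23a at 1.51 (1.28 to 1.86), Il10 at 0.894 (0.627 to 1.19) and Il12a at 0.303 (0 to 0.685). Osm was the highest in both groups by this measure, and also in CPM before division by length. Neighbours in this order whose ranges overlapped were Il6 and Lif, Il12b and Ebi3, Il27 and Il23a, and Il10 and Il12a.

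As a share of the CPM per kb summed over the 9 genes, Osm made up 89.5% ± 1.46 (SD, n = 3) in GSK-J4, against 45.8% ± 1.44 (SD, n = 3) in LPS + GSK-J4. Il6 went from 0.871% ± 0.521 to 19.2% ± 1.18, Lif from 1.78% ± 0.195 to 13.1% ± 2.63 and Il12b made up 7.58% ± 2.54 in LPS + GSK-J4. The share of Ebi3 was 7.72% ± 1.63 and 6.88% ± 1.11, with overlapping groups (exact permutation p = 0.6, 2-sided). With these lengths, the make-up of the cytokine transcripts thus went from mostly Osm to Osm with Il6, Lif and Il12b. The sum itself was 79.6, 94.9 and 97.5 CPM per kb in GSK-J4 and 57.9, 65.9 and 70.9 in LPS + GSK-J4, lower in each library of the latter (exact permutation p = 0.1, 2-sided).

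**Figure D3:**
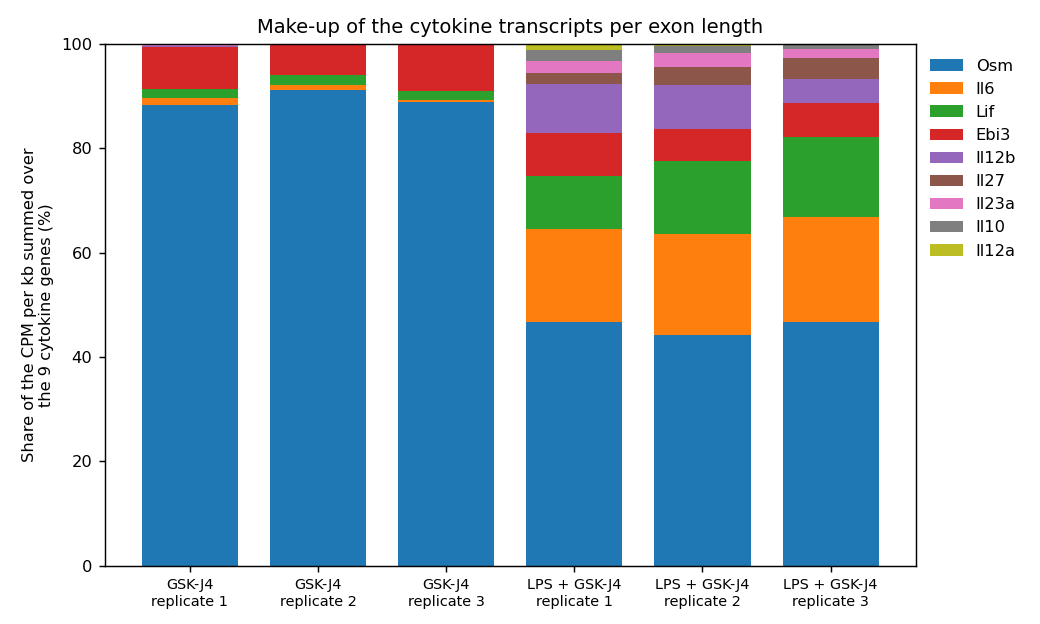
Share (%) of each cytokine gene in the CPM per kb summed over the 9 genes, with 1 stacked bar for each of the 3 GSK-J4 and the 3 LPS + GSK-J4 libraries. Osm makes up most of each GSK-J4 bar, 89.5% on average, and 45.8% of the LPS + GSK-J4 bars, where Il6 (19.2%) and Lif (13.1%) follow.

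Of 9 further ligands of the IL-6 and IL-10 families, 2 were tested. Of these, 1 was called higher and 0 lower, beside 2.95% and 0.809% of all tested genes. Their median log2 fold change was 1.603, beside -0.000584 over all genes tested. This list and those below were chosen with earlier results of these data known. Clcf1, a gp130 cytokine, was at 9.86, 7.82 and 12.04 CPM in GSK-J4 and 33.8, 45.2 and 44.8 CPM in LPS + GSK-J4. It rose from 9.90 ± 2.11 to 41.2 ± 6.47 CPM (SD, n = 3), with a log2 fold change of 2.08 (standard error 0.21, edgeR adjusted p = 2.32e-06). Il11, a gp130 cytokine of stromal cells, was at 30.7 ± 8.13 and 65.8 ± 13.1 CPM (SD, n = 3) and passed the adjusted p alone (log2 fold change 1.12, edgeR adjusted p = 0.000619), as 8.42% of tested genes did in this direction. Cntf, Ctf2, Il20 and Il22 were at 0 in all libraries, and Ctf1, Il19 and Il24 had at most 3 counts in any library. These ligands are also made by astrocytes and stromal cells, whose marker sums were higher in LPS + GSK-J4 for astrocytes (130.1 to 157.7 against 53.6 to 59.1 CPM) and overlapped for mesenchymal cells (137 to 425 against 79.7 to 280.0 CPM). Their part in these results, and in that for Lif, was not tested.

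Of 12 receptor chains, 6 were tested and 0 were called, where 2.95% of all tested genes were called higher and 0.809% lower, so a count of 0 among 6 does not set the chains apart. Their log2 fold changes were between -0.37 and 1.35 with a median of 0.24. DESeq2's Wald test also called 0 of them, and at an unadjusted p under 0.05 in edgeR 3 were higher and 1 was lower. Il6st, the shared gp130 chain, was at 57.8 ± 2.21 and 78.5 ± 8.51 CPM (SD, n = 3), with a log2 fold change of 0.44 (edgeR adjusted p = 0.0273). Il6ra, the IL-6 binding chain, was at 20.5 and 15.6 CPM, with a log2 fold change of -0.37 (edgeR adjusted p = 0.233). Osmr, the specific chain for oncostatin M, was spread over 30.0, 13.8 and 8.39 CPM in GSK-J4 and 29.1, 43.7 and 64.9 CPM in LPS + GSK-J4. Its groups overlapped through GSK-J4 replicate 1 (log2 fold change 1.34, edgeR adjusted p = 0.0772), and without that library Osmr was called higher (1.99, adjusted p = 0.000254). Lifr, the chain that binds LIF, had a log2 fold change of 0.99 (edgeR adjusted p = 0.108). The IL-10 receptor chains differed by less, with Il10ra at 74.6 ± 3.54 and 77.3 ± 3.37 CPM (log2 fold change 0.05, edgeR adjusted p = 0.825) and Il10rb at 120.5 ± 10.3 and 97.5 ± 13.3 CPM (-0.31, adjusted p = 0.118). The receptor chains of the IL-12 family, Il12rb1, Il12rb2, Il23r and Il27ra, had too few counts to be tested, as had Il11ra1 and Cntfr, and their means were at most 3.28 CPM in either group.

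Downstream of these receptors, 9 of 10 JAK-STAT relays and feedback genes were tested. Of these, 2 were called higher and 0 lower (median log2 fold change 0.05), beside 2.95% and 0.809% of all tested genes. In this list and in those of further ligands, STAT3 targets, transcription factors and mRNA stability factors, DESeq2 also called 0 genes lower, and at an unadjusted p under 0.05 in edgeR 1, 0, 2, 2 and 1 genes were lower. Both of the genes called here are inhibitors of cytokine signalling. Socs3, which is induced by STAT3 and blocks gp130 signalling, was at 9.86, 9.83 and 10.2 CPM in GSK-J4 and at 72.6, 73.6 and 89.6 CPM in LPS + GSK-J4. It rose by a log2 fold change of 2.98 (standard error 0.17, edgeR adjusted p = 2.74e-09), and its libraries were close together within each group. Socs1 rose from 1.006 ± 0.242 to 6.33 ± 1.83 CPM (SD, n = 3), with a log2 fold change of 2.55 (edgeR adjusted p = 0.000457) from a level near the limit of detection. With 5, 5 and 2 counts in GSK-J4, it reached the filter through the LPS + GSK-J4 libraries alone. Jak2, a kinase bound to gp130, passed the adjusted p alone (log2 fold change 0.80), while Stat3 itself was at 134 ± 18.1 and 127.7 ± 19.0 CPM with overlapping groups.

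All 10 genes of a list of STAT3 targets were tested, with a median log2 fold change of 0.52. Of these, 4 were called higher and 0 lower, beside 2.95% and 0.809% of all tested genes. Socs3 belongs to both lists. Pim1, a survival kinase, rose from 65.2 ± 3.98 to 330.7 ± 66.8 CPM (SD, n = 3), with a log2 fold change of 2.34. Il1rn, the interleukin-1 receptor antagonist, rose from 43.6 ± 5.09 to 220.9 ± 17.6 CPM, with a log2 fold change of 2.33, and Junb, an AP-1 subunit, had a log2 fold change of 1.69. The gene for the interleukin-4 receptor chain, Il4ra, was at 142.3 ± 19.6 and 82.7 ± 13.7 CPM and passed the adjusted p alone (log2 fold change -0.78). Bcl3, Nfil3, Etv3, Sbno2 and Ddit4 did not pass the test. Several of these genes also respond to LPS directly, and the share of the cytokines in their change was not tested.

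**Figure D4:**
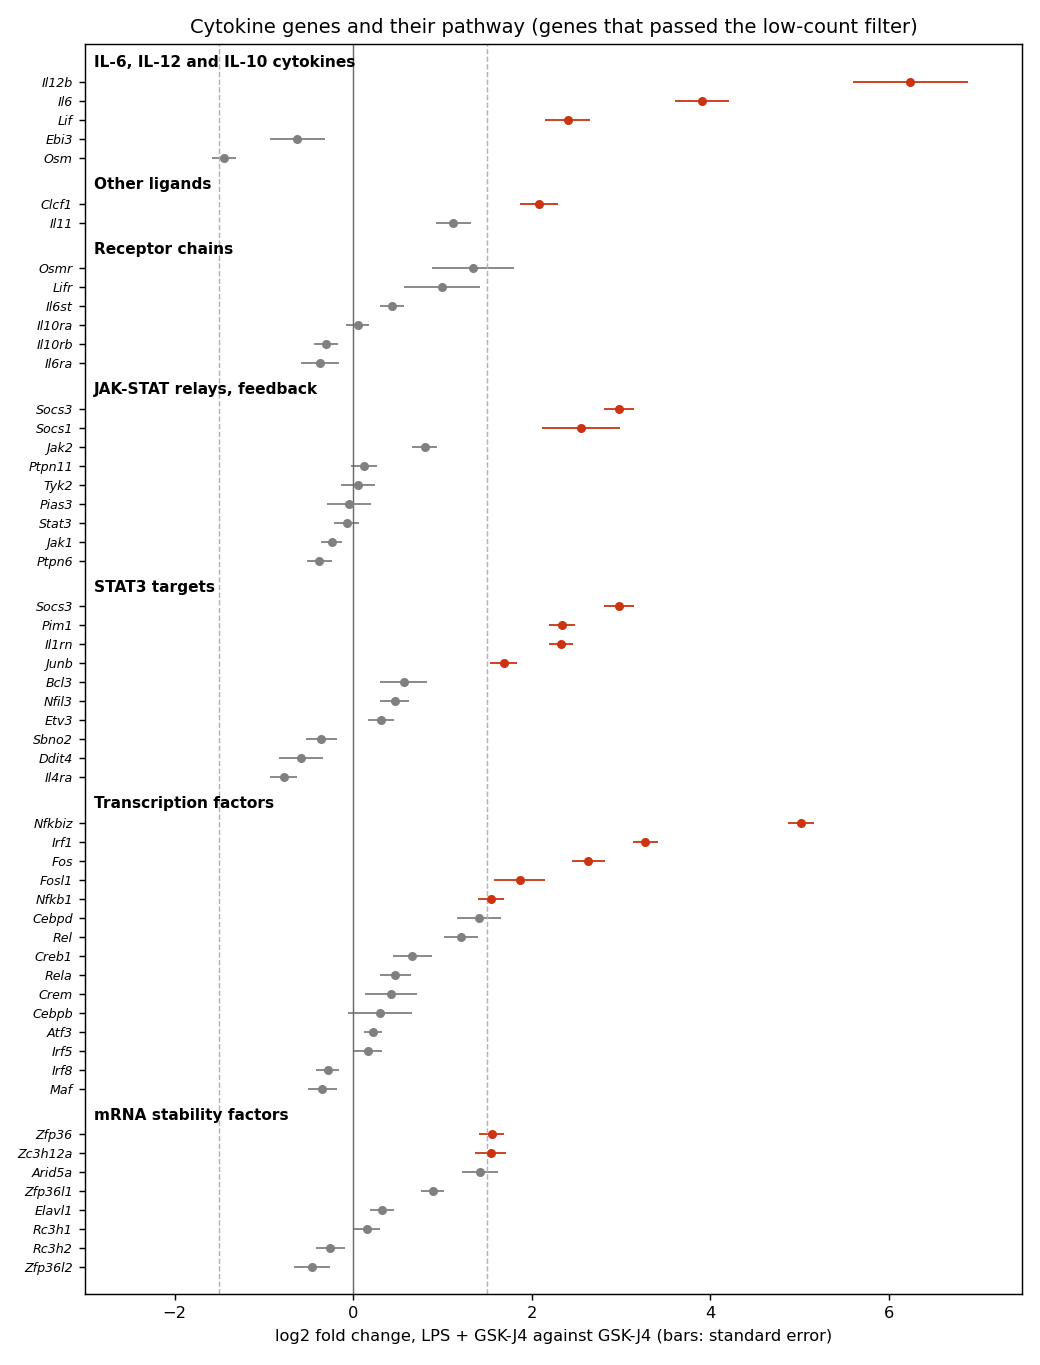
log2 fold change of LPS + GSK-J4 over GSK-J4 with its standard error (edgeR) for the tested cytokine genes and the tested genes of the lists of further ligands, receptor chains, JAK-STAT relays and feedback, STAT3 targets, transcription factors and mRNA stability factors. Red points were called higher, grey points were not called, and dashed lines mark log2 fold changes of -1.5 and 1.5. Of the cytokine genes 3 lie to the right of the threshold, and Osm lies just inside the threshold on the left.

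Of 17 transcription factor genes that act on Il6, Il12b, Il23a or Il10, 15 were tested (median log2 fold change 0.66). Of these, 5 were called higher and 0 lower, beside 2.95% and 0.809% of all tested genes. Nfkbiz, which encodes a nuclear IkB protein needed for Il6 and Il12b transcription, was at 44.1, 37.3 and 29.9 CPM in GSK-J4 and at 1283, 1186 and 1169 CPM in LPS + GSK-J4. It rose by a log2 fold change of 5.02 (standard error 0.15, edgeR adjusted p = 7.33e-13), the largest in these lists outside the cytokine genes themselves. Irf1, which encodes an interferon regulatory factor, rose from 46.0 ± 8.33 to 448 ± 21.1 CPM (SD, n = 3), with a log2 fold change of 3.27. The AP-1 genes Fos and Fosl1 had values of 2.64 and 1.87 on the log2 scale, and the NF-kB subunit gene Nfkb1 had 1.54, which was close to the threshold. Without LPS + GSK-J4 replicate 3, Fosl1 (1.48) and Nfkb1 (1.39) were not called and 3 of the genes were. Rel and Cebpd passed the adjusted p alone (log2 fold changes 1.21 and 1.41). Cebpb, a factor of the C/EBP site shown for Il6, was at 118 ± 52.9 and 143.8 ± 48.6 CPM, a difference within the spread between libraries (log2 fold change 0.30, edgeR adjusted p = 0.612), and Irf5, Irf8 and Maf were not called either.

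Cytokine mRNAs such as Il6 are also controlled by factors that bind their 3′ ends. All 8 of the listed mRNA stability factors were tested, with a median log2 fold change of 0.61. Of these, 2 were called higher and 0 lower, beside 2.95% and 0.809% of all tested genes. Zfp36, which speeds decay of AU-rich mRNAs, rose from 158.8 ± 18.5 to 465 ± 79.3 CPM (SD, n = 3), with a log2 fold change of 1.55. Zc3h12a, a nuclease that cuts Il6 mRNA, rose from 47.7 ± 3.62 to 138.5 ± 39.3 CPM, with a log2 fold change of 1.54. Both lay close to the threshold for the fold change. Without LPS + GSK-J4 replicate 3 neither was called (log2 fold changes 1.41 and 1.29), and Zfp36 was lost without GSK-J4 replicate 1 (1.47) and Zc3h12a without GSK-J4 replicate 2 (1.49). Arid5a, which protects Il6 mRNA, was at 16.1 ± 4.23 and 42.3 ± 4.39 CPM and passed the adjusted p alone (log2 fold change 1.42), as did Zfp36l1 (0.89).

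Over the 6 libraries, the tested genes whose levels lay closest to each cytokine gene were named by the Euclidean distance of log2 CPM, which rests on both the level and the difference between groups and is given as a description. They were Gbp7 (1.02), Gbp3 (1.15) and Traf1 (1.19) for Il6, and Ttc39c (0.894), Klf7 (0.947) and Nfkbie (1.03) for Lif. For Il12b they were Heatr9 (0.872), Tnfsf15 (1.03) and Ifit1bl2 (1.19). Closest to Osm were Tatdn2 (0.418), Hilpda (0.484) and Fabp5 (0.486), and closest to Ebi3 were Cdan1 (0.313), Fggy (0.408) and Iah1 (0.434).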

How the data were processed

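RNA-seq of PM at 4 h was analysed for 3 GSK-J4 and 3 LPS + GSK-J4 libraries. Per the labels and the paper's methods, rRNA-depleted RNA was made into directional paired-end libraries, and the authors trimmed the reads (Trimmomatic 0.33 in their processing notes), aligned them to mm10 with STAR 2.5.1 and deposited raw counts per gene, without normalization. The annotation used for counting is not given in the sources used here. Groups and replicate numbers came from the titles. The reverse-strand column was used, and the other strand held 0.966 to 1.38% of gene fragments. The unassigned tallies in the first lines were left out of library sizes.

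Counts were analysed with edgeR 4.0.16 and limma 3.58.1 under R 4.3.3, using TMM factors, filterByExpr (minimum count 10, minimum total 15) and a robust quasi-likelihood fit with group as its single term, with Benjamini-Hochberg adjustment. The standard error is the log2 fold change divided by the root of F. The thresholds for a call were 0.01 for the adjusted p and 1.5 for the size of the log2 fold change. Alternatives were unstranded counts, DESeq2 1.42.0 (its size factors and its Wald test), removal of Rn45s, Mir6236 and Lars2, other filters and thresholds, a replicate block, and leaving out libraries. The code was tested on simulated data. Permutation tests were exact, on log2 (CPM + 1) for single genes, on the log2 of ratios within a library, and on unlogged shares and sums. Counting intervals were exact at 95%. Python 3.11.15 (matplotlib 3.10.9, scipy 1.17.1, pandas 2.3.3, numpy 2.4.6) was used for tables and plots. Positions are from the GENCODE annotation of mm10, sequences from RefSeq. The members and gene lists were chosen with earlier results of these data known. The genes named are the cytokine genes, the listed genes, genes within 50 kb and the 3 closest by distance. Results that need 2 of the listed genes are not reported here, and these genes were left out of their lists.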

Additional observations from a re-analysis of the deposited data

Results flagged for a closer look

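Il10 had fragments on the strand opposite to the gene, in a count column that no comparison of levels used. These antisense fragments numbered 4, 3 and 0 in LPS + GSK-J4 replicates 1, 2 and 3, a sum of 7, and 0 in all GSK-J4 libraries. In the same LPS + GSK-J4 libraries Il10 had 4, 3 and 2 counts on its own strand. They are drawn to attention as a signal outside the main measurement that was absent from the libraries of the GSK-J4 group, and the difference was not tested. Groups of 3 libraries were not examined for outlying values.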

How the results depend on the processing

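All 9 cytokine genes kept their direction under every alternative that gave a value. Of 118 such values of their log2 fold changes, 113 stayed on the same side of the thresholds, 4 passed them where the reported value did not (Osm at -1.503 without the filter on low counts, -1.55 without GSK-J4 replicate 1 and -1.53 without LPS + GSK-J4 replicate 3, and Il10 at 4.01 in unstranded counts) and 1 no longer did (Il27 at 5.57 without replicate 3 of both groups). DESeq2 gave Il12a, Il27 and Il10 no adjusted p without the filter, in an alternative chosen after seeing the data. Without the filter on low counts, 5 cytokine genes were called higher and 6 in either direction, and 0 mRNA stability factors. With at least 10 counts required in every library, which leaves fewer genes tested, 176 genes were called higher in all, 1 cytokine gene higher and 1 in either direction, and 1 JAK-STAT gene. At looser thresholds (adjusted p 0.05, log2 fold change 1), 844 genes were called higher and 285 lower, and 2 further ligands were called.

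With single libraries left out, between 271 and 374 genes were called higher and 79 to 100 lower, and 3 to 4 cytokine genes in either direction, with 3 called higher in each case. The counts were 1 for the further ligands in each case, 0 to 1 for the receptor chains, 3 to 6 for the transcription factors and 0 to 3 for the mRNA stability factors. Correlations of deviations from the group means were -0.0102, 0.117 and 0.295 for libraries of equal replicate number 1, 2 and 3. Those between unequal numbers were from -0.290 to 0.243. These few values cannot settle whether the replicate numbers pair the libraries. With the number as a block, 306 genes were called higher and 90 lower, and no call on a cytokine gene changed. Depth limits what can be said of Il12a, Il10 and Il27, with at most 3, 4 and 7 counts in a library.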
